A study of Xenopus laevis with 4 samples.

Results

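Chromatin-modifying enzymes were examined in Xenopus laevis embryos that had reached the mid-blastula transition, when the embryo starts large-scale transcription of its own genome. Members were chosen by name: genes of the dnmt, tet, kdm, kmt, setd, hdac, sirt and kat families, and ezh1, ezh2, eed, suz12, ep300 and crebbp, with a final .L or .S of the name ignored. Of 49078 features in the table, 87 matched, from 62 gene symbols. X. laevis is allotetraploid, and the endings .L and .S mark the copies of a gene, called homeologs, on the long and short chromosomes. Both copies were members for 25 symbols. By family name, 38 members were classed as writers, which place a methyl or acetyl group on DNA or on histones, and 49 as erasers, which remove one. The classes follow names only. They include members whose products act on other proteins, such as setd3.L and hdac6.L, or are not the catalytic subunit, such as eed and suz12.

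The series holds 4 RNA-seq libraries, all from whole embryos about 9 hours after fertilization. The 2 EU-RNA libraries came from embryos that received 10 nl of 50 mM 5-ethynyl uridine (EU) at the 1-cell stage. EU is a uridine analogue that enters RNA made after the injection, and RNA carrying it was coupled to biotin and captured on streptavidin beads. The 2 Normal libraries were made from unselected total RNA, which holds maternal and newly made RNA. The extraction notes say that this came from normal embryos, although the treatment field repeats the EU injection for them. If they were not injected, the groups differ in capture and injection at once, and the effects of these cannot be told apart. The labels give no strain or clutch, so a p-value here rests on the variation among single libraries, which may be technical in origin.

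DNA methyltransferases and histone lysine methyltransferases use S-adenosylmethionine to add methyl groups, and acetyltransferases use acetyl-CoA. TET dioxygenases oxidize methylated cytosine, KDM enzymes demethylate histone lysines, and histone deacetylases and sirtuins remove acyl groups from lysines. The frog egg is stocked with many of the corresponding mRNAs and proteins before the embryo's genome becomes active.

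Column totals were between 47598265 and 209445802 estimated counts, so depth differed most between the Normal libraries, of which replicate 1 had the lowest total and replicate 2 the highest. Genes known to be switched on at this stage, such as the nodal and bix genes, summed to 3661 and 3583 counts scaled by library size and TMM factor (CPM) in the EU-RNA libraries 1 and 2, over 14 rows of 9 symbols. The same rows summed to 827 and 797 CPM in the Normal libraries. Of 15 rows for genes of differentiated tissues, 6 had 0 counts in every library, among them hba1.L and rho.L. ins.L was the exception, at 27.3 and 17.6 CPM in EU-RNA against 1.78 and 2.00 CPM in total RNA. All other rows stayed below 1.5 CPM in every library. A maternal list of 13 rows summed to 2447 and 2355 CPM in EU-RNA and to 1127 and 1196 CPM in total RNA, but its rows were split, with 7 higher and 6 lower in EU-RNA without overlap. vegt.L, the row with the most counts, was at 1036 and 767 CPM against 258 and 257 CPM, whereas h1foo.L was at 45.7 and 55.4 CPM against 113 and 102 CPM. Because whole embryos were used, fewer cells with a transcript and less of it per cell cannot be told apart.

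Few of these enzyme genes were called different between captured EU-RNA and total RNA. A log2 fold change below is EU-RNA over Normal by edgeR's quasi-likelihood test, with TMM scaling, which places the average transcript at about 0, and a call requires a Benjamini-Hochberg adjusted p below 0.05 over all features tested. Of the 87 members, 85 passed the filter on low counts, and kdm4b.L and setd7.S had 0 counts in every library. Of these 85, 2 were higher in EU-RNA, the methyltransferase gene kmt5a.L and the acetyltransferase gene kat7.L, and 0 were lower. Over all 26543 features tested, 4.69% were called higher and 0.889% lower, against 2.35% and 0% of the members. The log2 fold change lay between -1 and 1 for 63 of the 85 members, or 74.1%, and for 52.3% of all features. These shares were not matched for counts, and the median SE was 0.36 for members and 0.86 for all features. The median log2 fold change of tested members was -0.11, with quartiles at -0.61 and 0.24, and that of all features was 0.01, with quartiles at -0.76 and 1.21. At an unadjusted p below 0.05 (edgeR), 7 members were higher and 14 lower, which is 8.24% and 16.5% of those tested. All features gave 12.3% in each direction at that level. DESeq2 called 6 members higher and 10 lower against a background of 12.2% and 8.07%, and limma-voom called 2 and 2 against 4.25% and 1.45%. Without the filter, edgeR called 4 and 5, where the background was 7.09% and 3.23%, and with homeolog copies summed 1 and 0, where it was 4.7% and 1.07%.

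The counts moved with single libraries, as did those of all features. Without EU-RNA replicate 2, 8 members were called higher and 23 lower, and the background rose to 14.9% and 17%. Without EU-RNA replicate 1 the counts were 4 and 12 (background 10.4% and 10.1%). They were 1 and 0 without Normal replicate 1 (3.77% and 0.476%) and 2 and 1 without Normal replicate 2 (5.52% and 0.612%). Each of these fits assumes that the lone library of a group varies as the other group does.

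The lack of a call carried different weight from one member to the next. For 29 of the 85 members, or 34.1%, the 95% interval of the log2 fold change lay wholly between -1 and 1, that is within 2-fold of the average transcript in either direction, compared with 9.35% of all features. All 29 were among the 54 members whose average log2 CPM reached 4, and 26.2% of features above that minimum had so narrow an interval. Of those 54 members 3.70% were called, both higher, whereas 11.7% of the features above that minimum were called higher and 1.61% lower. For members with fewer counts the interval was wide. The 2 groups of libraries did not overlap for 16 members that were higher and 34 that were lower in EU-RNA, or 18.8% and 40% of members, against 26.4% and 30.6% of all features.

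**Figure D1:**
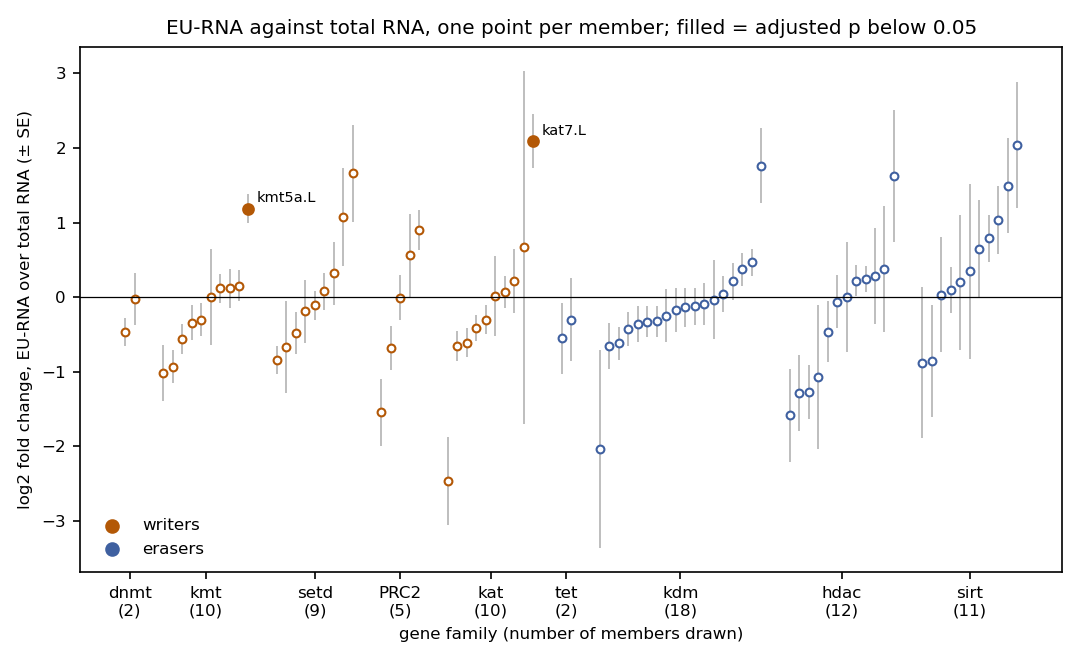
Log2 fold change of EU-RNA over total RNA, with its standard error, for the 79 tested members with counts above 0 in each of the 4 libraries, ordered within each family, writers in orange and erasers in blue. Only the filled points, kmt5a.L at 1.18 and kat7.L at 2.09, passed an adjusted p of 0.05, and points of the kdm family cluster near 0, most of them below it.

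The single DNA methyltransferase symbol among the members was dnmt1, which encodes the enzyme that copies methylation onto newly replicated DNA. The L copy, dnmt1.L, was at 171 and 179 CPM in the EU-RNA libraries and at 254 and 229 CPM in the Normal libraries, the EU-RNA values being lower without overlap. The log2 fold change was -0.47 (SE 0.18, 95% interval -0.91 to -0.02, edgeR adjusted p = 0.181). For dnmt1.S the values were 85.6 and 177 CPM in EU-RNA and 137 and 129 CPM in total RNA, so that the EU-RNA libraries lay on either side of the Normal ones and the log2 fold change was -0.02 (95% interval -0.87 to 0.83). Neither copy passed.

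Histone H4 lysine 20 is methylated once by the product of kmt5a (also known as Set8), and further by those of kmt5b and kmt5c. kmt5a.L was at 132 and 121 CPM in EU-RNA against 52.0 and 59.4 CPM in total RNA. Both EU-RNA libraries lay above both Normal libraries, and the difference of 1.18 on the log2 scale (SE 0.20, edgeR adjusted p = 0.0257) was larger than the spread between replicates. The S copy, kmt5a.S, lay on the other side of 0, at 184 and 269.5 CPM against 283 and 292 CPM, and its log2 fold change of -0.34 (95% interval -0.92 to 0.23) did not pass. With the counts of both copies summed before the fit, kmt5a had a log2 fold change of 0.01 (edgeR adjusted p = 0.977), so the call concerns the L copy and not the gene as a whole. It was also lost without Normal replicate 1 (1.096, edgeR adjusted p = 0.159). Reads that fit both copies are divided by the authors' counting, and the part of this division in the difference was not tested.

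Both kmt5c copies were close to the average transcript. kmt5c.L was at 102 and 123.3 CPM in EU-RNA and 98.3 and 109.6 CPM in total RNA, and kmt5c.S at 119 and 94.6 CPM against 94.3 and 97.2 CPM, with log2 fold changes of 0.12 and 0.16 and overlapping groups. kmt5b.S stood lower, at 14.2 and 15.4 CPM against 22.9 and 37.1 CPM (-1.02, 95% interval -1.94 to -0.11, edgeR adjusted p = 0.164), without passing. kmt5b.L overlapped between groups and had a log2 fold change of 0.00 with an interval of -1.57 to 1.57.

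**Figure D2:**
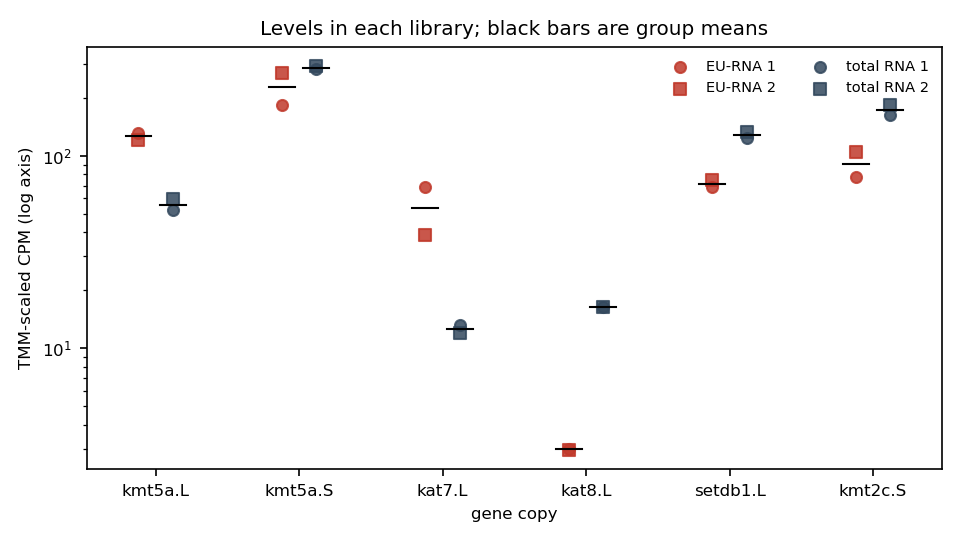
TMM-scaled CPM on a log axis in each library for both copies of kmt5a, for kat7.L and for the members with an adjusted p between 0.05 and 0.10. EU-RNA libraries are red and total RNA libraries dark, circles are replicate 1 and squares replicate 2, and black bars are means. kmt5a.L and kat7.L are higher in both EU-RNA libraries, and the other copies are lower in both.

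Methylation of histone H3 lysine 4 is laid down at promoters and enhancers by KMT2 and SETD1 enzymes. kmt2c.S was at 77.3 and 105 CPM in EU-RNA and 163 and 184 CPM in total RNA, with EU-RNA lower in every comparison of libraries. The fold change of -0.93 on the log2 scale (SE 0.22, edgeR adjusted p = 0.0767) missed the threshold, although DESeq2 (adjusted p = 0.000535), limma-voom (0.0425) and the fit without a filter (edgeR adjusted p = 0.00502) called it lower. kmt2c.L went the same way, at 168 and 191 CPM against 242 and 289 CPM (-0.56, edgeR adjusted p = 0.162, DESeq2 adjusted p = 0.00944). kmt2a.S (0.12, 95% interval -0.52 to 0.75) and setd1b.S (-0.11, 95% interval -0.58 to 0.36) had intervals within 2-fold of the average transcript, as did kmt2e.S (-0.30, 95% interval -0.84 to 0.24), whose product has no well-established methyltransferase activity.

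setdb1, which encodes a methyltransferase of histone H3 lysine 9 linked to the silencing of repeats, was lower in EU-RNA in all comparisons of libraries for both copies. setdb1.L was at 68.7 and 74.6 CPM in EU-RNA against 124 and 133 CPM in total RNA, a log2 fold change of -0.84 (edgeR SE 0.19, adjusted p = 0.0618). This did not pass in edgeR, while DESeq2 gave an adjusted p of 0.000291, limma-voom 0.0440 and the fit without a filter 0.0196. setdb1.S, at 31.3 and 48.2 CPM against 55.2 and 55.7 CPM (-0.48, edgeR adjusted p = 0.372), and setdb2.S (-0.67, edgeR adjusted p = 0.607) did not pass.

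Among the other SETD members, setd5.L had the most counts of its family, at 167 and 249.8 CPM in EU-RNA and 192 and 203 CPM in total RNA (0.08, 95% interval -0.52 to 0.67), with overlapping groups. setd9.L, at 20.4 and 9.62 CPM against 4.25 and 5.23 CPM (1.66, SE 0.65, edgeR adjusted p = 0.184), and setd3.L, whose product is known in mammals to methylate actin rather than histones, at 13.0 and 11.5 CPM against 3.83 and 7.79 CPM (1.07, edgeR adjusted p = 0.403), were higher in both EU-RNA libraries without passing.

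Polycomb repressive complex 2 methylates histone H3 lysine 27 through the catalytic subunit EZH2 or EZH1, and EED and SUZ12 are required for its activity. Its members had log2 fold changes of both signs. eed.S was at 97.5 and 64.7 CPM in EU-RNA and 44.4 and 42.5 CPM in total RNA (0.90, SE 0.26, edgeR adjusted p = 0.124, DESeq2 adjusted p = 0.0366), whereas suz12.S was at 38.1 and 65.1 CPM against 79.8 and 85.8 CPM (-0.68, SE 0.30, edgeR adjusted p = 0.229). Neither passed in edgeR. ezh2.L, the copy with most of the ezh2 counts, was at 134 and 77.8 CPM in EU-RNA and 96.7 and 116 CPM in total RNA, which is a log2 fold change of -0.01 (95% interval -0.73 to 0.72) with overlap. ezh2.S was lower without overlap, at 7.74 and 16.1 CPM against 30.7 and 38.6 CPM (-1.54, SE 0.45, edgeR adjusted p = 0.122), a difference called by DESeq2 (adjusted p = 0.0130) and without a filter (edgeR adjusted p = 0.00451) but not in the edgeR test used here. For ezh1.L the EU-RNA libraries held 488 and 0 counts, one above and one below both Normal libraries.

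Acetyltransferases held the other called member. kat7 encodes HBO1, which in mammals acetylates histones H3 and H4 within complexes with BRPF or JADE proteins. kat7.L was at 68.6 and 38.7 CPM in EU-RNA and 13.1 and 12.0 CPM in total RNA. The EU-RNA libraries differed from each other by more than the Normal ones did, but both lay well above them, and the log2 fold change was 2.09 (SE 0.36, 95% interval 1.21 to 2.98, edgeR adjusted p = 0.0285). The call was kept in all 12 alternative fits, from 1.57 without EU-RNA replicate 1 to 2.40 without EU-RNA replicate 2. kat7.S is not analysed here, so the fit with copies summed added nothing to the counts of kat7.L and does not test the call. Whether reads of a second copy were counted with kat7.L was not tested.

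kat8, which encodes MOF, the acetyltransferase of histone H4 lysine 16, had the lowest log2 fold change of any tested writer. kat8.L was at 2.98 and 2.95 CPM in EU-RNA against 16.4 CPM in each Normal library, or 254 and 396 counts against 728 and 3064. The replicates were close to each other and the groups far apart, yet the difference of -2.46 on the log2 scale (SE 0.58, edgeR adjusted p = 0.0736) missed the threshold. DESeq2 (adjusted p = 4.07e-05) and the fit without a filter (edgeR adjusted p = 0.0206) called it lower, and limma-voom did not.

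The co-activator acetyltransferase gene crebbp had the most counts among the writers. crebbp.S was at 190.3 and 241 CPM in EU-RNA and 327 and 350.1 CPM in total RNA (-0.65, SE 0.20, edgeR adjusted p = 0.141, DESeq2 adjusted p = 0.00336), and crebbp.L at 187 and 234 CPM against 258 and 261 CPM (-0.30, SE 0.20, edgeR adjusted p = 0.435). kat6a, whose product acetylates histone H3, showed a similar pair of values, with -0.61 for kat6a.S (edgeR adjusted p = 0.146, DESeq2 adjusted p = 0.0232) and -0.42 for kat6a.L (edgeR adjusted p = 0.215). All these copies were lower in both EU-RNA libraries without passing in edgeR. kat14.L (0.07, 95% interval -0.44 to 0.59) overlapped between groups, as did kat2a.L (0.21) and kat2a.S (0.02), homologues of GCN5.

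No eraser passed the edgeR test in either direction. Of the 48 tested, 3 had a positive and 5 a negative log2 fold change at an unadjusted p below 0.05 (edgeR). All features gave 12.3% in each direction at that level. DESeq2 called 3 higher, kdm3a.L, kdm8.L and sirt6.L, and 3 lower, hdac6.L, hdac8.L and tet2.S, while limma-voom called 0 in either direction. Over all features, DESeq2 called 12.2% higher and 8.07% lower, and limma-voom 4.25% and 1.45%.

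The TET members had low counts. tet3, the TET gene with the most counts here, was at 9.25 and 20.1 CPM in EU-RNA and 21.9 and 21.0 CPM in total RNA for tet3.L (-0.55, 95% interval -1.71 to 0.61), and at 21.1 and 9.22 CPM against 13.6 and 23.7 CPM for tet3.S (-0.30, 95% interval -1.65 to 1.05). In each copy the EU-RNA libraries differed from one another by more than 2-fold. tet2.S was at 0 counts in EU-RNA libraries 1 and 2 and at 60 and 251 counts in the Normal libraries. With a floor of 3 counts over the EU-RNA group, tet2.S was at least 98.3-fold lower in EU-RNA. That bound covers counting error only and not the variation between libraries. The edgeR 95% interval of the log2 fold change was far wider, from -18.40 to -2.09, and tet2.S did not pass in edgeR (adjusted p = 0.156). tet2.L had 0 and 69 counts in EU-RNA and 0 and 308 in total RNA, so that each group held a library without it.

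Many histone demethylase genes were measured precisely and lay near 0. Of 19 tested kdm members, 12 had a 95% interval within 2-fold of the average transcript, and the family's quartiles were -0.34 and 0.01 on the log2 scale. Its median was -0.17, with 5 positive and 14 negative values, against 13355 positive and 13188 negative over all features. Among genes for lysine 4 demethylases, kdm1a (LSD1) split by copy, with kdm1a.S at 59.0 and 71.7 CPM in EU-RNA against 48.8 and 52.1 CPM in total RNA (0.37, edgeR adjusted p = 0.380) and kdm1a.L at 17.3 and 23.1 CPM against 31.2 and 32.3 CPM (-0.65, edgeR adjusted p = 0.272). kdm5c.S, of the JARID1 group, was at 63.2 and 53.5 CPM against 76.2 and 69.9 CPM (-0.32, 95% interval -0.84 to 0.19). Neither symbol had a copy that passed.

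The H3 lysine 9 demethylase gene kdm3a also split. kdm3a.L was at 180.1 and 179.8 CPM in EU-RNA and 125 and 135 CPM in total RNA (0.47, SE 0.18, edgeR adjusted p = 0.176), and kdm3a.S at 126 and 184 CPM against 191 and 205 CPM (-0.36, SE 0.24, edgeR adjusted p = 0.441). The copies lay on opposite sides of 0 and neither passed. The kdm4 copies, for demethylases of lysines 9 and 36, ranged from -0.42 for kdm4a.L to -0.03 for kdm4c.L. The genes for the lysine 27 demethylases, kdm6a.S (-0.12, 95% interval -0.74 to 0.49) and kdm6b.S (-0.62, 95% interval -1.15 to -0.09, edgeR adjusted p = 0.162), did not pass, and the lysine 36 demethylase genes kdm2a.L (0.05) and kdm2b.L (0.21) had intervals within 2-fold.

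kdm8.L stood apart within its family, at 39.1 and 17.6 CPM in EU-RNA and 7.45 and 9.25 CPM in total RNA. Both EU-RNA libraries were above both Normal libraries, but they differed by more than 2-fold, and with 1.76 on the log2 scale (SE 0.50, edgeR adjusted p = 0.115) the gene was not called. DESeq2 (adjusted p = 0.0130) and the fit without a filter (edgeR adjusted p = 0.00606) called it higher. kdm1b.L, which encodes LSD2, had the lowest log2 fold change of the family, with 119 and 114 counts in EU-RNA and 166 and 1025 in total RNA, but with a wide interval (-2.03, 95% interval -5.27 to 1.20). The histone activity of KDM8 (JMJD5) is debated in mammals.

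Of the class I deacetylases, some of which work in the NuRD, SIN3 and CoREST complexes, hdac1.L had the most counts of any single eraser copy. It was at 216 and 198 CPM in EU-RNA and 171 and 179 CPM in total RNA (0.24, 95% interval -0.20 to 0.68), and hdac1.S at 135 and 150.4 CPM against 107 and 137 CPM (0.22, 95% interval -0.29 to 0.74). The other class I members differed among themselves, with hdac2.L at 5.70 and 8.20 CPM against 17.3 and 16.5 CPM (-1.28, edgeR adjusted p = 0.185), hdac8.L at 4.50 and 3.97 CPM against 12.6 and 12.9 CPM (-1.58, edgeR adjusted p = 0.188), and hdac3.S overlapping (0.28). None passed in edgeR.

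hdac6.L, for a largely cytoplasmic deacetylase that acts on tubulin, was at 26.4 and 52.6 CPM in EU-RNA and 104 and 86.2 CPM in total RNA. It was lower without overlap (-1.27, SE 0.36, edgeR adjusted p = 0.113), and was called by DESeq2 (adjusted p = 0.00885), without a filter (edgeR adjusted p = 0.000149) and without Normal replicate 2 (edgeR adjusted p = 0.0187). hdac9.S, a class IIa member, was at 6.74 and 9.71 CPM against 2.21 and 3.14 CPM (1.62, SE 0.88, edgeR adjusted p = 0.339). hdac7.L, hdac4.L and hdac5.L had log2 fold changes of -0.06, 0.01 and 0.38, and did not pass. The lowest value of the family was that of hdac7.S, at 0 and 16 counts in EU-RNA and 107 and 31 in total RNA (-4.39, 95% interval -11.81 to 3.03).

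Sirtuins, the NAD-dependent deacylases, had positive log2 fold changes for 9 of 11 members, against 13355 of all 26543 features. Their median was 0.35, and none passed in edgeR. Limma-voom gave negative values for 3 of the 9, -0.23 for sirt1.L, -0.35 for sirt2.S and -0.16 for sirt3.1.S, which leaves 6 of 11 positive. The median of all features with limma-voom was itself below 0, at -0.21. Summed over the family, they held 202 and 146 CPM in EU-RNA and 119.6 and 127 CPM in total RNA. The mitochondrial member sirt4.L was at 43.2 and 37.5 CPM against 18.6 and 28.1 CPM (0.79, SE 0.31, edgeR adjusted p = 0.192). The nuclear members sirt1.S, at 17.5 and 8.72 CPM against 1.60 and 4.75 CPM (2.04, SE 0.85, edgeR adjusted p = 0.209), sirt6.L (1.49, SE 0.63, edgeR adjusted p = 0.218) and sirt7.L (1.03, SE 0.45, edgeR adjusted p = 0.234) were higher in both EU-RNA libraries. Their other copies overlapped between groups, sirt6.S at 46.1 and 11.3 CPM against 20.1 and 16.5 CPM (0.65), and sirt1.L at 6.18 and 2.16 CPM against 2.54 and 4.01 CPM (0.35). At the other end was sirt5.S, for a mitochondrial desuccinylase, at 3.54 and 2.39 CPM against 5.18 and 5.71 CPM (-0.88, 95% interval -3.36 to 1.60). The median SE of the family was 0.76, against 0.25 for the kdm family, so the sirtuins were measured with less precision.

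Writers and erasers, classed by family name, were next set side by side. Of 37 tested writers, 2 were called higher (5.41%) and 0 lower, and of 48 tested erasers, 0 and 0. Over all features, 4.69% were called higher and 0.889% lower. The median log2 fold changes of writers and erasers were -0.02 and -0.13. Quartiles were at -0.56 and 0.21 for writers and -0.63 and 0.25 for erasers, so those of the classes were close. With scaling by library size only, the median of all features was 0.28, and those of writers and erasers were 0.24 and 0.13. With limma-voom, all features had a median of -0.21 and the classes -0.26 and -0.27. The difference between the classes was not tested, because members are not replicates of a condition. Within a library, the ratio of the summed CPM of writers to that of erasers does not depend on scaling between libraries. It was 1.65 and 1.86 in EU-RNA and 2.07 and 2.02 in total RNA. EU-RNA was lower in both libraries, and the gap between the groups was smaller than the difference between the EU-RNA libraries. The sums behind it were 2666 and 3070.2 CPM for writers in EU-RNA against 3332 and 3498 CPM in total RNA, and 1614 and 1649 CPM for erasers against 1607 and 1732 CPM. Without crebbp and kdm3a, the writer and eraser symbols with the most counts, the ratios were 1.75 and 2.02 against 2.13 and 2.08. Without crebbp and hdac1, which includes the single eraser copy with the most counts, they were 1.81 and 2.00 against 2.07 and 2.04. EU-RNA library 2 then lay close to the Normal libraries in both.

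Split by modification, in a grouping made after the values were known, the ratio was lower in both EU-RNA libraries for H3 lysine 9 methylation, at 0.219 and 0.244 against 0.368 and 0.351. It was also lower for H3 lysine 4 methylation, at 2.65 and 2.99 against 3.36 and 3.89. For lysine acetylation it was lower, at 1.24 and 1.35 against 1.78 and 1.72, with all tested hdac and sirt members taken as erasers. For H3 lysine 27 methylation it was higher, at 2.90 and 2.44 against 2.28 and 2.10. Its 6 writers include the copies of eed and suz12, which are not the catalytic subunit. Only eed.S among them was higher in EU-RNA without overlap, while ezh2.S and suz12.S were lower and the others overlapped. A ratio from ezh1 and ezh2 alone was not computed. Only 3 writers entered the lysine 9 ratio, all of them setdb genes, and only 2 erasers the lysine 27 ratio. Other H3 lysine 9 methyltransferase genes lay outside the name rule and did not enter the lysine 9 ratio. Of these, suv39h2.L was higher in EU-RNA, at 179 and 97.7 CPM against 65.0 and 71.3 CPM (1.02, edgeR adjusted p = 0.136). ehmt1.S (-0.86), ehmt2.L (-0.43) and suv39h1.L (-0.56) were lower. The setdb writers summed to 107 and 129 CPM in EU-RNA and to 191 and 198 CPM in total RNA. The lower lysine 9 ratio describes these setdb genes only, and a ratio that includes the others was not computed. For DNA methylation, with dnmt1 over tet2 and tet3, the groups overlapped, at 8.44 and 11.9 against 10.6 and 7.51.

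**Figure D3:**
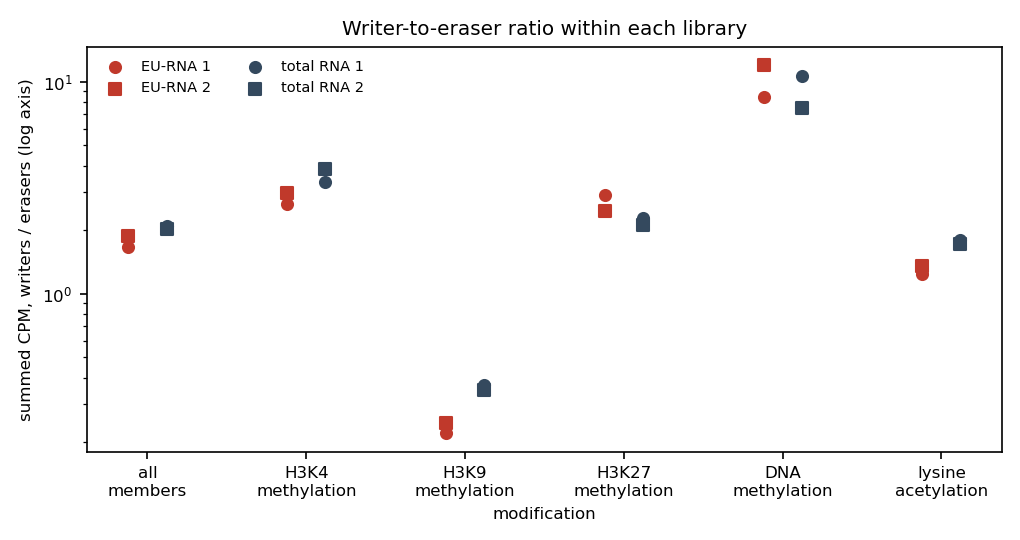
Ratio of summed CPM of writers to erasers in each library on a log axis, for all tested members and for 5 modifications. EU-RNA libraries (red) lie below total RNA libraries (dark) for all members, for H3 lysine 4 and lysine 9 methylation and for acetylation, above them for H3 lysine 27 methylation, and among them for DNA methylation. The lysine 9 writers are setdb genes only, and the lysine 27 writers include eed and suz12, which are not the catalytic subunit.

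Some enzyme genes are listed in the table under a LOC identifier only. By gene number, 22 such loci carry a symbol of the rule in the RefSeq annotation of the X. laevis v10.1 assembly, 15 writers and 7 erasers. They were looked up after the table was seen and are not counted above. None passed in edgeR, and 1 was higher and 6 were lower at an unadjusted p below 0.05, against 12.3% of all features each way. DESeq2 called 2 higher and 5 lower, where the background was 12.2% and 8.07%, and limma-voom 0 and 3, where it was 4.25% and 1.45%. They include both copies of ep300, the paralogue of crebbp. ep300.L (LOC108714480) was at 809 and 963 CPM in EU-RNA and 563 and 689 CPM in total RNA (0.50, SE 0.22, edgeR adjusted p = 0.228, DESeq2 adjusted p = 0.0114), and ep300.S (LOC108715729) at 341 and 404 CPM against 276 and 282 CPM (0.42, edgeR adjusted p = 0.250). Both were higher in both EU-RNA libraries, opposite in direction to crebbp, without passing in edgeR. With these loci added, the acetylation ratio was 3.04 and 3.39 in EU-RNA against 3.07 and 3.14, so the groups overlapped and the lower ratio given above rests on the features listed by symbol. The lysine 27 groups overlapped too with the added loci, at 1.46 and 1.16 against 1.19 and 1.15. The lysine 4 ratio was again lower in EU-RNA, at 4.21 and 5.03 against 5.88 and 7.15. So was the lysine 9 ratio, at 0.189 and 0.201 against 0.295 and 0.277, but the loci added no lysine 9 writer.

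The H3 lysine 4 methyltransferase gene kmt2d was lower for both copies, with kmt2d.L (LOC108708548) at 334 and 362 CPM in EU-RNA against 585 and 758 CPM in total RNA (-0.95, SE 0.21, edgeR adjusted p = 0.0660) and kmt2d.S (LOC108708990) at 343 and 379 CPM against 565 and 676 CPM (-0.78, SE 0.20, edgeR adjusted p = 0.0909). Both missed the threshold in edgeR and were called by DESeq2 (adjusted p = 4.99e-07 and 4.70e-06) and limma-voom (adjusted p = 0.0115 and 0.0156). The H3 lysine 36 methyltransferase gene setd2 had log2 fold changes of -0.84 for the L and -0.58 for the S copy, and suz12.L (LOC108701224) one of -0.68, the same as suz12.S to 2 decimals. Of the loci higher in both EU-RNA libraries, kat5.L (LOC108713942), for the TIP60 acetyltransferase, was at 31.0 and 35.7 CPM against 12.9 and 18.5 CPM (1.08, SE 0.34, edgeR adjusted p = 0.141). hdac9.L (LOC108718873), at -1.32 on the log2 scale (95% interval -4.93 to 2.30), was opposite in sign to hdac9.S at 1.62. hdac5.S (LOC108702540), at -1.78 (95% interval -3.75 to 0.19), was opposite in sign to hdac5.L at 0.38. None of these copies passed in edgeR. With the 22 loci added, the ratio of writers to erasers was 2.55 and 2.91 in EU-RNA and 2.98 and 3.07 in total RNA.

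Homeologs of an enzyme gene were compared with each other. In the 25 pairs with both copies tested, the median absolute difference in log2 fold change between copies was 0.37. The share of a pair's counts on its L copy compares copies within a library and is free of scaling between libraries. Over the 24 pairs with a value in every library, this share did not overlap between groups in 11, higher in EU-RNA in 7 and lower in 4. Over all 4412 homeolog pairs with such values, 25.6% were higher and 27% lower without overlap, and the median absolute difference in log2 fold change was 0.77. The pairs were not matched for counts. For kmt5a the L share was 41.8% and 31.0% in EU-RNA and 15.5% and 16.9% in total RNA, a difference of 20.2 percentage points (two-sided exact permutation p = 0.333, the smallest that 2 against 2 libraries allow). kdm3a moved from 39.6% and 39.8% in total RNA to 58.9% and 49.5% in EU-RNA, and ezh2 from 75.9% and 74.997% to 94.5% and 82.9%. The opposite held for kdm1a, at 39.0% and 38.3% in total RNA and 22.6% and 24.4% in EU-RNA, and for sirt1, at 61.4% and 45.8% against 26.1% and 19.8%. Among the pairs with the most counts, crebbp was at 44.1% and 42.7% in total RNA and 49.6% and 49.2% in EU-RNA, and kmt2c at 59.7% and 61.2% against 68.5% and 64.6%, both higher in EU-RNA without overlap. The kat6a and dnmt1 shares overlapped between groups. In hdac1 the shares of 61.6% and 56.8% in EU-RNA matched the 61.6% and 56.5% of total RNA. How the authors' counting divided reads shared by a pair bears on all these shares and was not tested.

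**Figure D4:**
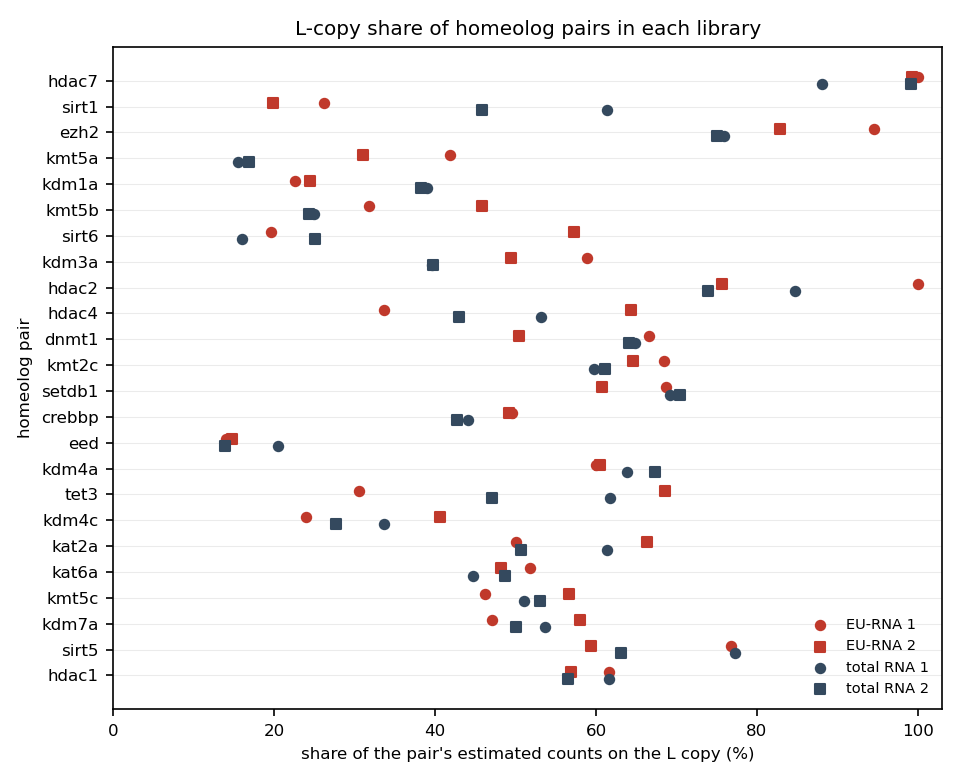
Share of a homeolog pair's estimated counts on the L copy in each library, for the 24 pairs with counts in every library, ordered by the difference in log2 fold change between copies. EU-RNA libraries are red and total RNA libraries dark, circles are replicate 1 and squares replicate 2. The shares of kmt5a, kdm3a, ezh2, kdm1a and sirt1 separate by group, and those of hdac1 do not.

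Enzymes outside the name rule and partner proteins were described from 5 lists, to be read against the 4.69% of all features called higher and 0.889% lower in edgeR, 12.2% and 8.07% in DESeq2 and 4.25% and 1.45% in limma-voom. Of 29 tested features for other histone methyltransferases, 4 were higher (13.8%) and 0 lower, while DESeq2 called 5 and 3 and limma-voom 4 and 0. The median of that list was -0.43 on the log2 scale. Both copies of the arginine methyltransferase gene prmt1 were among them, prmt1.S at 579.5 and 478 CPM in EU-RNA against 185 and 181 CPM in total RNA (1.53, SE 0.20, edgeR adjusted p = 0.0115) and prmt1.L at 498 and 422 CPM against 185 and 163 CPM (1.40, SE 0.20, edgeR adjusted p = 0.0158). The others were whsc1l1.S, an older symbol for the H3 lysine 36 methyltransferase gene nsd3 (2.51, SE 0.30, edgeR adjusted p = 0.00940), and the feature listed as prdm9.L (3.74, SE 0.25, edgeR adjusted p = 0.00358). The feature listed as nsd3.L went the other way, at 27.7 and 27.1 CPM in EU-RNA against 39.5 and 34.1 CPM in total RNA. Its log2 fold change of -0.43 did not pass (edgeR adjusted p = 0.401). Of 22 features for other demethylases and acetyltransferases, none passed. At an unadjusted p below 0.05 (edgeR), 1 was higher and 4 lower, against 12.3% of all features each way. DESeq2 called 1 of them higher and 2 lower, and limma-voom 0 and 0. In 50 features for COMPASS and Polycomb partners, 2 were higher, both of Polycomb repressive complex 1, rybp.L (1.505, SE 0.22, edgeR adjusted p = 0.0166) and pcgf5.L (2.85, SE 0.52, edgeR adjusted p = 0.0341), and 0 lower. DESeq2 called 3 higher and 3 lower, and limma-voom 1 and 0. The median of the 50 was -0.12. rybp.S overlapped between groups, at 18.4 and 27.9 CPM in EU-RNA against 25.0 and 26.8 CPM in total RNA (-0.16). Both copies of phc1, also of Polycomb repressive complex 1, were lower without overlap. phc1.S (-1.42, edgeR adjusted p = 0.0948) and phc1.L (-0.40, edgeR adjusted p = 0.284) did not pass.

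Of 25 features for partners of deacetylases, 2 were higher (8%) and 0 lower, with a median of -0.12. DESeq2 called 4 higher and 3 lower and limma-voom 3 and 1, the one lower being sin3a.S (-0.68, edgeR adjusted p = 0.102). Both features called by edgeR were copies of sap30, which encodes a subunit of the SIN3 deacetylase complex, with sap30.S at 49.95 and 54.5 CPM in EU-RNA against 12.9 and 16.2 CPM in total RNA (1.84, SE 0.28, edgeR adjusted p = 0.0188) and sap30.L at 145 and 99.3 CPM against 49.0 and 45.7 CPM (1.37, SE 0.25, edgeR adjusted p = 0.0343). In the list of methyl-DNA maintenance factors and readers, 3 of 24 were higher (12.5%) and 0 lower, with a median of -0.27, while DESeq2 called 3 and 4 and limma-voom 3 and 2. The edgeR calls were gadd45a.L (3.22, SE 0.23, edgeR adjusted p = 0.00358) and gadd45a.S (2.80, SE 0.26, edgeR adjusted p = 0.00490), a stress-induced gene that has been linked to DNA demethylation, and the acetyl-lysine reader gene brd2.S (1.97, SE 0.20, edgeR adjusted p = 0.00611).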

How the data were processed

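RNA was measured in 2 libraries of captured EU-RNA and 2 of total RNA. The authors deposited 1 table that lists whole-number estimated counts for each gene, made with bcl2fastq and Salmon 0.12.0 per the submitters' processing notes. The index, genome build, any length scaling and the use of strand are not given in the sources used here. Counts of different genes are therefore not read as their relative transcript levels. The rankings by counts and the ratios of summed CPM take no account of transcript length. The table's 4 columns were all used, and 0 columns were left unused.

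Estimated counts, rounded to whole numbers, were fitted with edgeR 4.0.16 in R 4.3.3 (TMM factors, filterByExpr, quasi-likelihood F-test, group only). p-values were adjusted over 26543 features, and the SE is the absolute log2 fold change over the square root of F. DESeq2 1.42.0, limma 3.58.1 (voom), other scalings and filters, a replicate block, summed homeologs and leaving out each library were alternatives, and the fit was tested on simulated counts. Intervals and floors of 3 counts cover counting error only where they come from counts. Deviations of same-numbered replicates correlated with r = 0.0038 across genes. With 1 difference between replicates in each group, this cannot show whether same-numbered libraries share a clutch or batch. The labels do not state it.

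Members and lists were chosen with earlier results of these data known. Members named in the text are all called ones, those with an adjusted p of 0.05 to 0.10, the extremes and the most counted of each family and the 5 most discordant and 5 most counted homeolog pairs. Others, among them hdac6.L, eed.S and the LOC loci, were named after their values were seen. Of the 87 members, 80 match a RefSeq symbol.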

Additional observations from a re-analysis of the deposited data

How the results depend on the processing

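Higher and lower calls among the members were 2 and 0 with RLE factors and with the stricter filter, and 3 and 0 with library size only. DESeq2 gave 6 higher and 10 lower, no filter 4 and 5, limma-voom 2 and 2, and summed homeologs 1 and 0. Leaving out 1 library gave 1 to 8 higher and 0 to 23 lower, the highest both without EU-RNA replicate 2 and the lowest without Normal replicate 1. Among writers, lower calls numbered 7 with DESeq2, 2 with limma-voom and 4 without a filter, higher calls 1 with copies summed, and leaving out a library gave 1 to 4 higher and 0 to 14 lower. Among erasers, DESeq2 called 3 higher and 3 lower and no filter 1 and 1, and leaving out a library gave 0 to 4 higher and 0 to 9 lower. The labels do not say whether the replicate numbers pair libraries. With the replicate block, 2 members were higher and 4 lower, of which 3 writers and 1 eraser were lower, against 6.74% and 2.56% of all features. The median of writers was 0.242 with library size only and -0.262 with limma-voom, and -0.469 to 0.093 with a library left out. Under the same settings that of all features was 0.275, -0.214 and -0.452 to 0.234. That of erasers was 0.132, -0.265 and -0.317 to -0.035, and -0.238 with the 22 loci added, an alternative chosen after seeing the data. The ratio of writers to erasers without crebbp and kdm3a was 2.02 in EU-RNA library 2 and 2.13 and 2.08 in total RNA. Without crebbp and hdac1, also chosen after seeing the data, it was 1.81 in EU-RNA library 1, and with the loci added it was 2.55 and 2.91 in EU-RNA and 2.98 and 3.07 in total RNA.

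Single members were followed under alternatives only where they were named by rule, as called, near the threshold, extreme, most counted or most discordant. They do not stand for all 85 tested members. Of 406 such values, 337 kept direction and side of the threshold, 45 passed in addition, 2 no longer passed (both kmt5a.L) and 22 changed sign. The cause of these changes was not tested. Sign changes near 0 were ezh2.L at 0.01 (RLE), 0.242 (library size only), 0.011 (DESeq2), 0 (no filter) and 0.007 (stricter filter), dnmt1.S at 0.258 and hdac7.L at 0.199 (library size only), and kmt5a.S at 0.014 and kdm3a.S at 0 (copies summed). sirt1.L was at -0.233 and ezh1.L at -2.816 with limma-voom, and ezh1.L at -2.505 with the replicate block. With a library left out, these ranges crossed 0: dnmt1.S from -0.684 to 0.352 (also 0.031), tet3.S from -1.061 to 0.157 (also 0.139), setd5.L from -0.289 to 0.284, ezh2.L from -0.501 to 0.29 (also 0.133), ezh1.L from -9.888 to 2.555, tet2.L from -9.439 to 7.51 and sirt1.L from -0.65 to 0.876. Precision was limited by 2 libraries a group: 29 of 85 members had a 95% interval within 2-fold, and the median SE was 0.36.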

Other observations

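In 5 members, 1 EU-RNA library had 0 counts while the other did not. hdac2.S had 0 and 353 counts in EU-RNA libraries 1 and 2, and kdm3a-like.L had 363 and 0. ezh1.L, tet2.L and hdac7.S, described above, were the others. kat2b.S, at 1 and 579 counts in EU-RNA and 36 and 358 in total RNA, was close to this pattern. Between the Normal libraries, 1 member, tet2.L, had 0 counts in 1 library only.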
